A study of Mus musculus with 6 samples.

Results

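The NMDA receptor subunits are encoded by 7 mouse genes, Grin1, Grin2a, Grin2b, Grin2c, Grin2d, Grin3a and Grin3b, which were listed by gene name. The set was proposed with earlier results of these data known, so its counts are a description and no independent result. Of the 7, 6 had a probeset (the group of array probes that reads out 1 transcript) paired with that gene alone, among 19938 genes measured in this way. Each of the 6 had 1 such probeset. Grin1 is not analysed here. Grin3b was among the dimmest 25% of genes and was left out of the test, so that 5 subunits stood among the 14953 genes tested.

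RNA came from the whole brain of male C57BL/6J mice, an inbred wild-type laboratory strain, at postnatal day 7. Per the labels and the design text, pups received 20% ethanol in saline under the skin as 2 doses of 2.5 g/kg given 2 h apart, or saline alone, and were killed 4 h after the first dose. Each array held RNA of 3 males from different litters, and 18 pups gave 2 ethanol arrays, numbered 2 and 4, and 4 saline arrays, numbered 1, 3, 5 and 6. Whole brain mixes all regions and cell types, so a change in a small region is diluted, and in such bulk RNA fewer cells of a type and less RNA per cell cannot be told apart.

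NMDA receptors are ion channels opened by glutamate together with a co-agonist, glycine or D-serine, and they admit calcium when the membrane is depolarised. Grin1 encodes the obligatory GluN1 subunit. The GluN2 subunits encoded by Grin2a to Grin2d bind glutamate and set the kinetics, and the GluN3 subunits encoded by Grin3a and Grin3b bind glycine and lower calcium entry. In rodent forebrain GluN2B dominates at birth and GluN2A is added over the first postnatal weeks. GluN2D is prominent early in the brainstem and diencephalon, GluN2C appears later in cerebellar granule cells, and GluN3A peaks in the early postnatal brain. Ethanol inhibits NMDA receptor currents, and the developing brain around this age is sensitive to NMDA receptor blockade. The comparison asks whether subunit transcripts differed between brains of ethanol and saline pups within hours of exposure.

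Grin2a, Grin2b, Grin2d and Grin3a were read well above background, and none of the 5 tested subunit genes passed the test between ethanol and saline. The largest differences were those of Grin2a and Grin2b, with log2 differences of 0.17 ± 0.08 (SE) and 0.15 ± 0.07. Grin3a and Grin2d had 0.08 ± 0.08 and 0.03 ± 0.12, and Grin2c, near background, had -0.10 ± 0.07. The test was a limma fit over all 14953 genes, ethanol minus saline, with 2 and 4 arrays and Benjamini-Hochberg adjustment at 0.05. In that fit 0.0803% of all genes passed, 0.0602% higher and 0.0201% lower, so 0 of 5 is close to the background share. These were 9 higher and 3 lower genes, which became 7 and 1 with the arrays centred, 22 and 30 with the dimmest 50% left out, and 21 and 35 with array weights. At an unadjusted p under 0.05 there was 1 subunit, Grin2a, where 3.85% of all genes were higher and 8.44% lower at that level. That count was 2, Grin2b being added, with the arrays centred, with quantile normalization and with a prior trend. Among the fits that kept both ethanol arrays, it was 0 with no variance prior, with array weights, and without saline array 3 or 5. Leaving out ethanol array 2 or 4 leaves 1 ethanol array, and the Grin2a log2 difference was then 0.13 or 0.21.

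Background was read from 1194 olfactory and vomeronasal receptor genes, which have little place in brain. Their median was 5.35 log2 intensity and their 95th percentile 6.21. On all 6 arrays Grin2b, Grin3a, Grin2a and Grin2d lay above that percentile and Grin2c and Grin3b below it. In order of signal, the means over the 6 arrays were 11.6 for Grin2b, 10.7 for Grin3a, 9.09 for Grin2a, 8.78 for Grin2d, 5.80 for Grin2c and 5.13 for Grin3b, and this order was the same on all 6 arrays. Grin2a and Grin2d were the closest neighbours well above background, and their saline ranges overlapped. Probesets differ in how strongly their probes bind, so this is an order of signals and not of transcript amounts.

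Grin2b, the subunit that dominates the newborn forebrain, read 11.65 and 11.67 on ethanol arrays 2 and 4. On saline arrays 1, 3, 5 and 6 it read 11.51, 11.37, 11.57 and 11.60. Both ethanol arrays lay above every saline array, with a gap of 0.0478 between the groups, and saline array 3 was the lowest. The means were 11.66 ± 0.02 (SD, n = 2) with ethanol and 11.51 ± 0.10 (SD, n = 4) with saline, a difference of 10.6% on the linear scale. Its 95% interval ran from -0.58% to 23.1% (limma adjusted p = 0.433).

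Grin2a, the subunit added during postnatal maturation, read 9.24 on ethanol array 2 and 9.17 on ethanol array 4. Its saline values were 9.12, 8.87, 9.08 and 9.07 for arrays 1, 3, 5 and 6. Again both ethanol arrays lay above all saline arrays, the gap between the groups was 0.05, and saline array 3 was the lowest. The means were 9.20 ± 0.05 (SD, n = 2) and 9.03 ± 0.11 (SD, n = 4), a difference of 12.5% with a 95% interval of 0.38% to 26.0% (limma adjusted p = 0.390). Grin2a and Grin2b were the 2 subunits of 5 whose groups did not overlap, where both ethanol arrays lay above all saline arrays for 7.68% of all tested genes and below them for 14.9%.

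**Figure D1:**
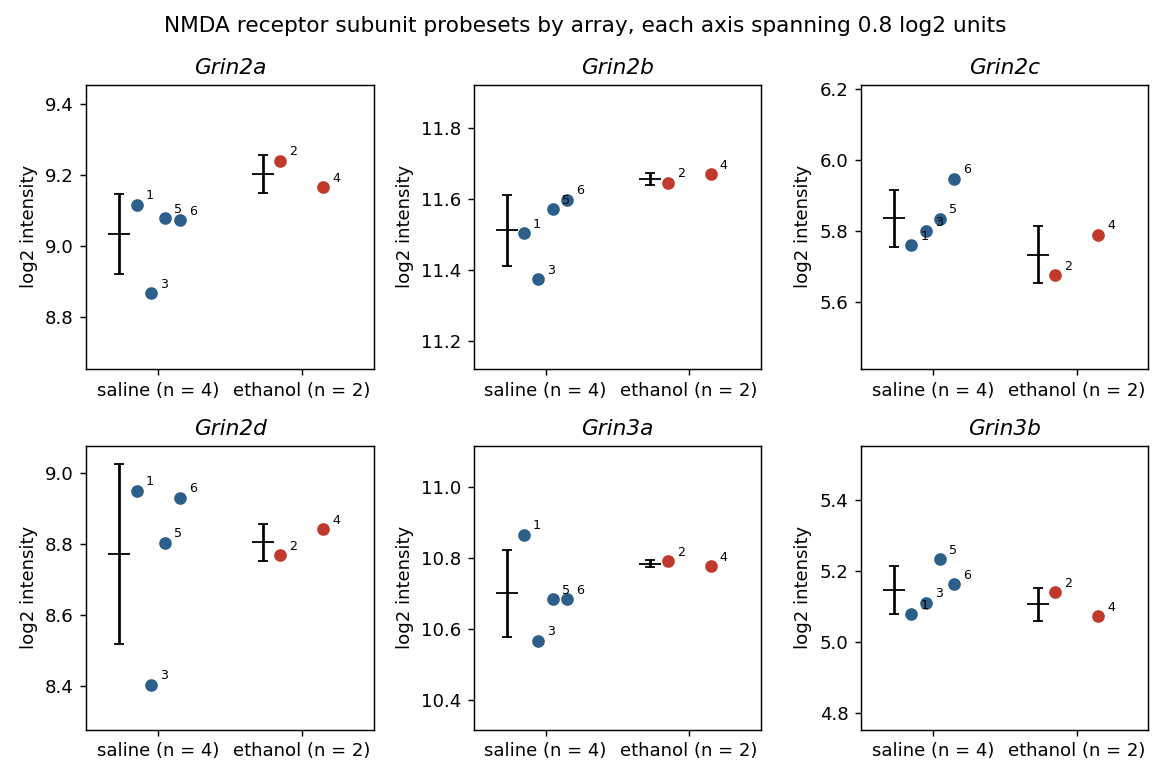
Log2 intensity of each subunit's probeset on every array, in panels whose axes span the same number of log2 units but are each centred on that gene's own values. Blue points are saline arrays and red points ethanol arrays, each marked with its array number, and black bars give the mean and SD. Ethanol points lie above all saline points for Grin2a and Grin2b, and saline array 3 is lowest for Grin2a, Grin2b, Grin2d and Grin3a.

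The balance of Grin2a to Grin2b, which shifts towards Grin2a as the forebrain matures, was followed as the log2 difference of the 2 probesets within each array. That quantity is free of a shift in log2 intensity shared by all probesets of an array, but not of a scaling that varies with intensity. Its absolute value depends on the probes. Ethanol arrays 2 and 4 gave -2.40 and -2.50, while saline arrays 1, 3, 5 and 6 gave -2.39, -2.51, -2.49 and -2.52. The groups overlapped, with means of -2.45 ± 0.07 (SD, n = 2) and -2.48 ± 0.06 (SD, n = 4). The difference between the groups was 0.024 (two-sided exact permutation test, p = 0.8 over 15 splits of the arrays, where the smallest possible p is 0.0667). No shift of the balance was detectable with these arrays, and the design could not have passed 0.05 in this test.

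Grin2d, which encodes a subunit of slow-closing receptors, read 8.77 and 8.84 on ethanol arrays 2 and 4. Its saline values were 8.95, 8.40, 8.80 and 8.93 on arrays 1, 3, 5 and 6, the widest spread among the 6 measured subunits, and they enclosed both ethanol values. The means were 8.81 ± 0.05 (SD, n = 2) and 8.77 ± 0.25 (SD, n = 4), with a 95% interval from -15.1% to 23.3% around a difference of 2.32% (limma adjusted p = 0.944). Without saline array 3 the log2 difference turned to -0.09 (limma adjusted p = 0.549), and it was also below 0 without ethanol array 4 and with array weights, so its direction is not settled.

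Grin3a, whose product makes receptors less permeable to calcium, read 10.79 and 10.78 on ethanol arrays 2 and 4. Saline arrays 1, 3, 5 and 6 read 10.86, 10.57, 10.68 and 10.68. Saline array 1 was above both ethanol arrays and the other saline arrays below them, so the groups overlapped. The means were 10.78 ± 0.01 (SD, n = 2) and 10.70 ± 0.12 (SD, n = 4), a difference of 5.94% with a 95% interval from -5.71% to 19.0% (limma adjusted p = 0.706).

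Grin2c, the subunit gene of mature cerebellar granule cells and also of some glia, had values within the background range on all arrays. It read 5.68 on ethanol array 2 and 5.79 on ethanol array 4, while saline arrays 1, 3, 5 and 6 gave 5.76, 5.80, 5.84 and 5.95. The lowest value was on ethanol array 2, and the groups overlapped (difference -6.86%, 95% interval -16.0% to 3.33%, limma adjusted p = 0.578). Gabra6, another gene of mature granule cells, also lay within the background range.

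Grin3b, known best from motor neurons of the brainstem and spinal cord, was the dimmest subunit. It read 5.14 on ethanol array 2 and 5.07 on ethanol array 4, and 5.08, 5.11, 5.23 and 5.16 across saline arrays 1, 3, 5 and 6, with overlapping groups. When no gene was left out for dimness, its log2 difference was -0.04 ± 0.06 (limma adjusted p = 0.845). For both near-background genes a change in transcript could be hidden beneath the background signal.

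**Figure D2:**
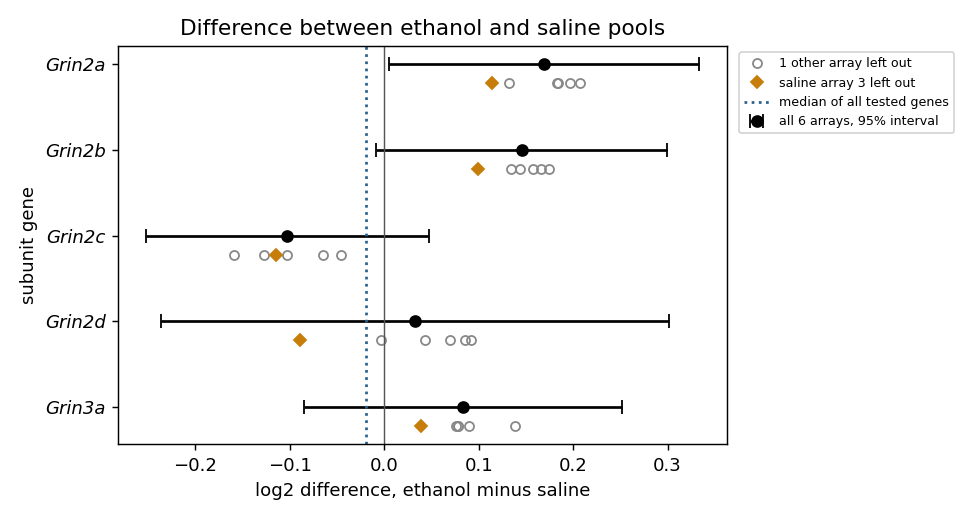
Log2 difference between ethanol and saline for the 5 tested subunits, with its 95% limma interval in black and the values after leaving out 1 array below it. Without saline array 3, shown in orange, the differences are 0.11 for Grin2a, 0.10 for Grin2b, 0.04 for Grin3a and -0.09 for Grin2d, and the dotted line marks the median of all tested genes at -0.02.

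Saline array 3 was the lowest of the 6 arrays for Grin2a, Grin2b, Grin2d and Grin3a, or 4 of 5 tested subunits, as it was for 36.9% of all tested genes. It also stood apart across the whole array: its median over tested genes was 8.29, against 8.34 to 8.38 on the other 5 arrays. On the first principal component (40.85% of variance) it lay at 13.5, and saline arrays 1, 5 and 6 at -2.13, 2.95 and -0.19. Ethanol arrays 2 and 4 lay at -6.61 and -7.49, at the opposite end and beyond all saline arrays. Relative to the mean of the other saline arrays, saline array 3 was at -0.49 for Grin2d, -0.22 for Grin2a, and -0.18 for Grin2b and Grin3a. After each array was centred on its median the same 4 subunits were still lowest there, against 18.1% of all tested genes, and the gaps became -0.40, -0.13, -0.09 and -0.09. Within the saline group, no subunit was an outlier by Dixon's test. The nearest was Grin2a, whose ratio of 0.826 fell just short of the critical value for 4 samples.

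Leaving out saline array 3 gave log2 differences of 0.11 for Grin2a (limma adjusted p = 0.380), 0.10 for Grin2b (0.441), 0.04 for Grin3a (0.835) and -0.11 for Grin2c (0.484). Grin2a and Grin2b still had both ethanol arrays above saline arrays 1, 5 and 6, as had 8.12% of all tested genes, and 23.8% lay below all of them. The median difference of the 5 tested subunits was 0.08 over all arrays and 0.04 without saline array 3, where the median of all tested genes over all arrays was -0.02.

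**Figure D3:**
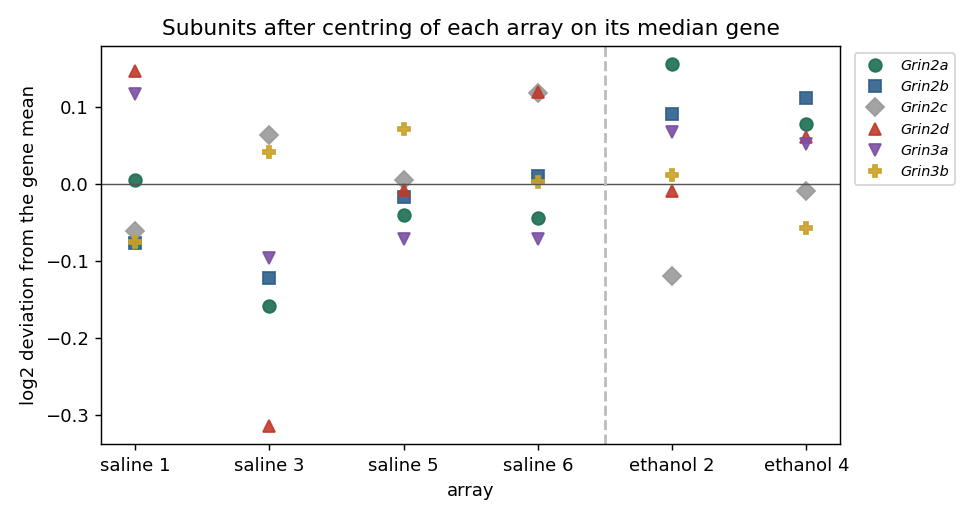
Deviation of each subunit from its mean over the 6 arrays, in log2 units, after each array was centred on its median gene. Symbols mark genes, and the dashed line parts saline from ethanol arrays. On saline array 3 Grin2d, Grin2a, Grin2b and Grin3a lie below 0 and the near-background Grin2c and Grin3b above it.

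Markers of cell types were set beside these values. All 8 neuronal markers were above background, Snap25, Map2 and Rbfox3 among them, and their mean level was 12.11 on both ethanol arrays and 12.08 to 12.17 on saline arrays. The 5 measured forebrain excitatory markers had mean levels of 9.11 on both ethanol arrays and 9.07 to 9.17 on saline arrays. Saline array 3 was the lowest array for both of these lists, and also for the 5 endothelial markers, at 8.46 against 8.53 to 8.59 on the other arrays. These levels were not centred, and the median over all tested genes was lowest on that array too, at 8.286 against 8.345 to 8.378. The 9 inhibitory neuron markers, all above background, had 9.96 to 10.01 with ethanol and 9.99 to 10.08 with saline. Cerebellar granule cell markers, of which 8 of 9 were above background, had 8.86 to 8.88 and 8.84 to 8.96. Oligodendrocyte lineage markers, all 6 above background, were at 9.03 to 9.14 with ethanol and 9.14 to 9.24 with saline, and before rounding both ethanol arrays lay below all saline arrays. The part of these cell types in the subunit values was not tested.

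Other glutamate receptor families gave no call. Of 11 AMPA, kainate and delta receptor subunit genes 10 were tested and 0 passed in limma. None reached an unadjusted p under 0.05 in that fit, and the median log2 difference was 0.01. The AMPA subunit gene Gria3 read 11.01 and 10.92 with ethanol and 11.14, 11.03, 11.01 and 11.11 on saline arrays 1, 3, 5 and 6, a log2 difference of -0.11 ± 0.06 (limma adjusted p = 0.518). The kainate subunit genes Grik3 and Grik2 had 0.12 ± 0.08 and 0.04 ± 0.06, and Grid1 of the delta family had -0.04 ± 0.06. Both ethanol arrays lay above saline for 1 of the 10 genes, Grik3, and below it for 1, Gria3, near the shares of all tested genes (7.68% and 14.9%). Saline array 3 was the lowest array for 5 of the 10, and for 36.9% of all tested genes, on values not centred by array.

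Metabotropic glutamate receptors, which signal through G proteins, had 6 of 8 genes tested and likewise 0 passing in limma or at an unadjusted p under 0.05. Grm2 had a log2 difference of -0.10 ± 0.07, and Grm8, Grm5 and Grm7 had 0.08 ± 0.07, 0.07 ± 0.07 and 0.07 ± 0.07. For GABA-A receptor subunits, the inhibitory channels that ethanol potentiates, 12 of 16 genes were tested and 0 passed in limma. None reached an unadjusted p under 0.05 there either, and the median was -0.02. Gabrb1 had 0.11 ± 0.06, Gabra3 -0.09 ± 0.06, Gabra4 -0.09 ± 0.06 and Gabrq 0.06 ± 0.07. The metabotropic receptors had a median of 0.05. These medians, over all 6 arrays, stand beside 0.08 for the NMDA receptor subunits on the same arrays. Without saline array 3 the subunit median was 0.04, and the medians of the other families were not recomputed without it. Differences between families were not tested.

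Genes that supply the co-agonists were next. Of 16 listed, 15 were tested, 7 above and 8 below 0, with 0 passing in limma or at an unadjusted p under 0.05 and a median of -0.01. Gcsh, a part of the glycine cleavage system, read 8.09 and 8.17 with ethanol and 8.02, 7.77, 8.01 and 8.03 on saline arrays 1, 3, 5 and 6, a log2 difference of 0.17 ± 0.08 (limma adjusted p = 0.408). For Gcsh saline array 3 was again lowest. Both ethanol arrays lay above all saline arrays for 2 of the 15 genes, Gcsh and Shmt1, and below them for 1, Psat1. The shares of all tested genes were 7.68% above and 14.9% below. Psat1, an enzyme of serine synthesis, had -0.10 ± 0.06, Amt, another glycine cleavage enzyme, -0.12 ± 0.08, and the near-background Shmt1, which interconverts serine and glycine, 0.08 ± 0.06.

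Among genes of glutamate transport and metabolism, 10 of 12 were tested and 0 passed in limma. The vesicular transporter gene Slc17a8 was the 1 member at an unadjusted p under 0.05, lower with ethanol. That is near the shares of all tested genes at that level, 8.44% lower and 3.85% higher. Slc17a8 read 6.99 and 7.09 with ethanol and 7.16, 7.28, 7.15 and 7.27 on saline arrays 1, 3, 5 and 6. The log2 difference was -0.18 ± 0.07 (limma adjusted p = 0.309). Both ethanol arrays lay below all saline arrays, as they did for 14.9% of all tested genes. Glul, the glutamine synthetase of astrocytes, had 0.19 ± 0.10, and the glutamate uptake carriers Slc1a1 and Slc1a6 had 0.09 ± 0.06 and 0.08 ± 0.08. The list median was 0.04.

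Scaffold, auxiliary and trafficking proteins of the receptor were represented by 30 tested genes of 33. None passed in limma, and the median was -0.02. At an unadjusted p under 0.05, 2 were lower and 0 higher, near the 8.44% and 3.85% of all tested genes. Lin7a, which encodes an adaptor of the complex that carries GluN2B-containing vesicles, read 10.28 and 10.16 with ethanol and 10.44, 10.45, 10.40 and 10.45 on saline arrays 1, 3, 5 and 6. Its groups did not overlap, and the log2 difference was -0.21 ± 0.06 (limma adjusted p = 0.194). Actn2, an actinin that links GluN1 and GluN2B to actin, had -0.13 ± 0.06 (0.399), Cask, a partner of Lin7a, -0.12 ± 0.07 (0.516) and Dlgap2, a postsynaptic density protein, 0.14 ± 0.08 (0.528). Both ethanol arrays lay above saline for 0 of the 30 and below for 3, no more than the shares of all tested genes (7.68% and 14.9%).

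Kinases, phosphatases and calcium effectors had 30 of 33 genes tested, 19 above and 11 below 0, with a median of 0.03. None passed in limma, and 0 had an unadjusted p under 0.05. The exchange factor genes Tiam1, Kalrn and Rasgrf2, which link receptor calcium signals to small GTPases, had log2 differences of 0.15 ± 0.08, 0.15 ± 0.08 and 0.12 ± 0.06 (limma adjusted p = 0.459, 0.489 and 0.489). The ethanol arrays lay above all saline arrays for 4 of the 30 genes, these 3 among them, and below for 1, against 7.68% and 14.9% of all tested genes. The calmodulin gene Calm2 had 0.12 ± 0.07. Saline array 3 was the lowest array for 21 of the 30 genes, among them the 4 just named, and for 36.9% of all tested genes. These counts are on values not centred by array, and none was made for this list after centring.

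Regulators of the subunit genes had 15 of 16 tested and 0 passing in limma. At an unadjusted p under 0.05 there was 1 member, lower with ethanol, near the 8.44% lower and 3.85% higher of all tested genes. This was Rest, a repressor of neuronal genes that include NMDA receptor subunit genes. It read 6.76 and 6.74 with ethanol and 6.78, 7.03, 7.01 and 6.88 on saline arrays 1, 3, 5 and 6, with saline array 3 highest, a log2 difference of -0.18 ± 0.08 (limma adjusted p = 0.366). Its corepressor Sin3a had -0.18 ± 0.09, the Polycomb gene Eed -0.15 ± 0.09 and Nrf1, an activator of respiratory and receptor genes, -0.09 ± 0.06. The list median was 0.02.

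Activity-regulated genes, many of which follow calcium entry through NMDA receptors, were the 1 list of the 9 with genes that passed. The list was chosen with earlier results of these data known, so its counts are no independent result. Of 20 listed 17 were tested, 1 rose and 1 fell in limma, where 0.0803% of all genes passed, and the median was -0.11. Btg2, an antiproliferative gene, rose by 0.57 ± 0.06 (limma adjusted p = 0.0021), and Nr4a1, an orphan nuclear receptor gene, fell by 0.47 ± 0.06 (0.0104). Btg2 lost its call with no variance prior (limma adjusted p = 0.269). Nr4a1 lost it there (0.269), after centring of the arrays (0.0522), and without ethanol array 2 (0.0803) or 4 (0.214). At an unadjusted p under 0.05 there were 3 higher and 6 lower members of 17, where 3.85% of all tested genes were higher and 8.44% lower. Inhba, an activin subunit gene, read 8.29 and 8.36 with ethanol and 8.66, 8.68, 8.56 and 8.75 on saline arrays 1, 3, 5 and 6 (log2 difference -0.34 ± 0.07, limma adjusted p = 0.0761). The transcription factor gene Egr3 had -0.33 ± 0.07 (0.103). Saline array 3 was lowest for 3 of the 17 genes and highest for 5. Among all 14953 tested genes it was lowest for 5516 and highest for 2269. Without ethanol array 4, which leaves 1 ethanol array, 4 of all tested genes passed in limma where 12 had.

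**Figure D4:**
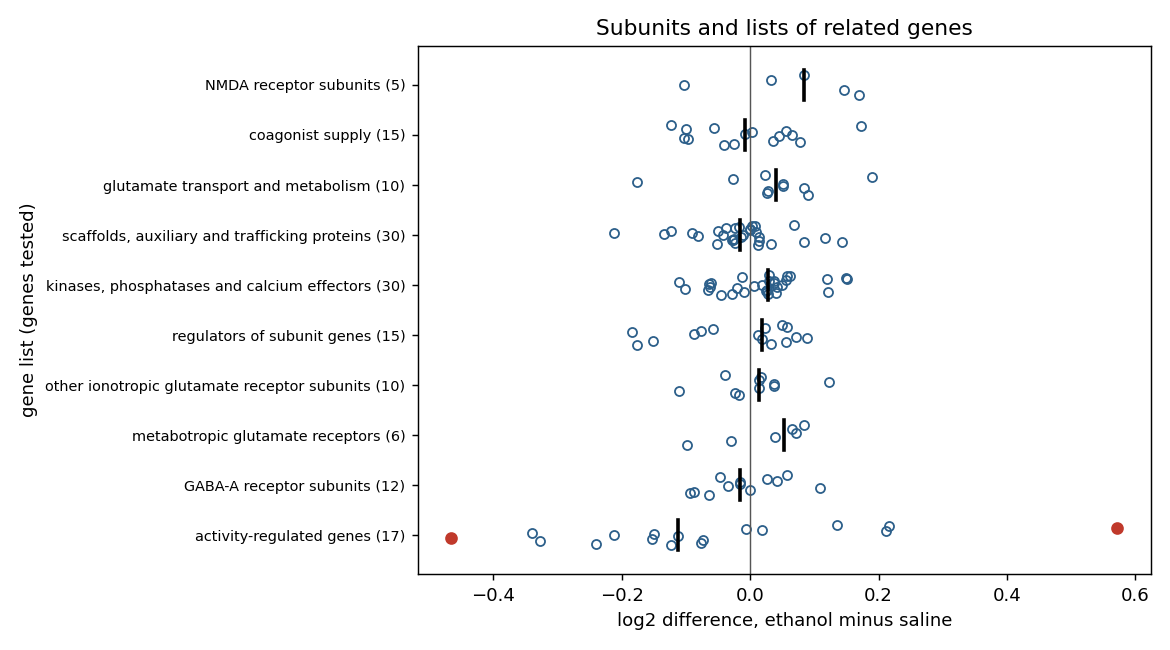
Log2 difference between ethanol and saline for each tested gene of the subunit set and of the 9 lists of related genes, with black bars at the list medians. Filled red points passed the limma test among all genes, namely Btg2 and Nr4a1 in the activity-regulated list, and open points did not.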

How the data were processed

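For each of 6 Affymetrix whole-transcript arrays the authors deposited a processed value per probeset, taken here to be log2 intensity from its range of 4.10 to 14.9. Partek 6.6 is named per the submitters' processing notes. How background was corrected, how arrays were normalized and which genome build was used are unstated in these sources. Of 35556 probesets, 21789 were paired with 1 gene by the platform annotation and 1621 with several. The probeset with the highest mean stood for a gene, and the dimmest 25% (4985 genes, up to a mean of 5.55) were left out. Values were fitted with limma 3.58.1 in R 4.3.3, with treatment as the 1 term, and the script was tested on simulated data. Intervals are 95% limma intervals, and the 2 and 4 arrays limit their precision. Replicates are pools of different pups, and no label pairs ethanol with saline arrays. The subunit set and the lists were chosen with earlier results of these data known. Named were all subunits, the 4 members of smallest p in each list, and for each tested subunit the 2 genes with the most similar profile. Alternatives were other filters, probeset rules, scalings and variance models, and leaving out each array.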

Additional observations from a re-analysis of the deposited data

How the results depend on the processing

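No subunit passed in limma under any of the 15 alternatives, in which the smallest adjusted p was 0.239 for Grin2a and 0.284 for Grin2b. The log2 differences of Grin2a (0.11 to 0.21), Grin2b (0.10 to 0.17), Grin3a (0.04 to 0.14) and Grin2c (-0.16 to -0.05) kept their signs in each alternative that gave a value. Grin2d turned to -0.053 with array weights and ran from -0.090 to 0.092 with 1 array left out. The Grin2a to Grin2b balance ran from -0.026 to 0.073 with 1 array left out, negative without ethanol array 2, and the subunit median from 0.04 to 0.14. Among all tested genes, 12 passed in limma. That count was 52 with the dimmest 50% left out, 43 with a prior trend, 56 with array weights and 0 with no variance prior (1535 at an unadjusted p under 0.05). It ran from 4 (without ethanol array 4) to 16 with 1 array left out. The causes were not tested. No paired analysis was possible because the ethanol and saline arrays share no number.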

Other observations

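Genes whose profile over the 6 arrays was most like that of a subunit were sought among all tested genes, after centring of each array. The values of Pearson's r are a description of 6 arrays, with the likest genes picked out of many, and carry no p. Nearest to Grin2a were Tmem132b and Slc2a3, the neuronal glucose transporter gene, both with r of 0.995, and 110 genes reached 0.95. Tmem132b and Slc2a3 had log2 differences of 0.12 and 0.16 beside 0.17 for Grin2a. Because they were picked for likeness on these same arrays, similar differences partly follow from the choice. Nearest to Grin2b were Carhsp1 (r of 0.998) and Tmem8b (0.996), with 109 genes at 0.95 or more. Their log2 differences were 0.27 and 0.05, beside 0.15 for Grin2b. Grin2d was most like Lime1 (0.988) and Mir381 (0.985), and Grin3a most like Marchf11 (0.981) and Rasgrp1 (0.980), a Ras exchange factor gene. For the near-background Grin2c the nearest were Acot3 (0.995) and Steap1 (0.990), which were near background too.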
